A study of Homo sapiens with 6 samples.

Results

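The 10 genes described here encode fibrillins, latent TGF-β binding proteins, elastin, fibulins, lysyl oxidases and fibronectin, the proteins from which cells build microfibrils and elastic fibres. They are FBN1, FBN2, LTBP1, LTBP2, ELN, FBLN5, EFEMP1, LOX, LOXL1 and FN1, 10 of the 19974 protein-coding genes on chromosomes 1 to 22 and X in the RefSeq table. The list was chosen with region counts of these data known, so the counts below describe the genes and carry no test. A region belonged to a gene when it overlapped the gene's RefSeq interval or lay within 50 kb of either end.

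Accessible DNA was profiled with ATAC-seq (Tn5 transposase inserts adapters where chromatin is open) in wild-type hTERT-RPE1 cells. The line derives from human retinal pigment epithelium, carries telomerase, and was grown with no labelled treatment. The titles of the 6 libraries place 3 in a set R1 and 3 in a set R2, without stating how these differ or whether they came from separate cultures. Each set came as 1 merged peak list, so no spread between libraries could be computed. The only spread available is that between the 2 lists.

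Elastic fibres are made outside the cell. Fibrillins polymerise into microfibrils on a fibronectin matrix, and the latent TGF-β binding proteins attach to both. Some of the binding proteins, such as that of LTBP1 but not that of LTBP2, hold TGF-β in an inactive store. Fibulins carry elastin onto the microfibrils, and lysyl oxidases cross-link elastin. In the eye, fibrillin microfibrils form the zonule that suspends the lens, and elastic fibres run through Bruch's membrane beneath the pigment epithelium.

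The lists held 142865 peaks in R1 and 134351 in R2 on these chromosomes, and the median summit was covered by 72 fragments in both. This fragment number, the pileup, was worked out from each peak's deposited fold and p-value and stands in for depth. Whether whole fragments or single reads were counted is not given, so fragments here stands for the unit of the pileup. A shared region is a joined stretch with at least 1 peak of each list. Among markers of the labelled cell type, 8 of 12 pigment epithelium genes had a shared promoter region, and RPE65, TYR, DCT and TYRP1 did not. The counts were 4 of 5 for mesenchymal, 1 of 3 for epithelial, 0 of 3 for endothelial, 2 of 4 for blood and 2 of 3 for smooth muscle markers. An open promoter does not measure expression, and the share over all protein-coding genes was 71.5%.

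The 10 genes together had 252 peaks in R1 and 259 in R2, which formed 229 shared regions. Within the gene intervals lay 125 of these, and 104 lay in the 50 kb on either side. FBN1 had the most, with 57 peaks in R1, 61 in R2 and 54 shared regions, and FBLN5 the fewest, with 3, 4 and 3. The median over the 10 genes was 20.5 shared regions, against 10 for the protein-coding genes together. Long genes are searched over a longer stretch, so the counts were also divided by the length searched.

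By density the order changed. LOXL1 stood first with 0.167 shared regions per kb, followed by FBN1 with 0.160, ELN with 0.141, FN1 with 0.137 and LTBP2 with 0.135. EFEMP1 had 0.114 and LOX 0.0956. LTBP1 with 0.0597, FBN2 with 0.0421 and FBLN5 with 0.0168 lay below the median of all protein-coding genes, 0.0676. The single-list densities of LOXL1 and FBN1 overlapped, as did those of EFEMP1 and LOX, so these neighbours did not differ beyond the spread between the lists. FN1 had more peaks per kb than ELN in each list (0.171 and 0.183 against 0.141 and 0.162), although a smaller part of them was shared. With the flanks included, the family therefore held both genes with few regions and genes near the top of the genome. LOXL1 lay at percentile 99.04 of all protein-coding genes and FBLN5 at 11.6. By the gene interval alone the top was less extreme, with FN1 highest at percentile 89.4, LOXL1 at 86.2, FBN1 at 77.9 and FBLN5 at 19.7. By the flanks alone LOXL1 lay at 98.5, FBN1 at 99.8, FN1 at 54.5 and FBLN5 at 15.6.

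**Figure D1:**
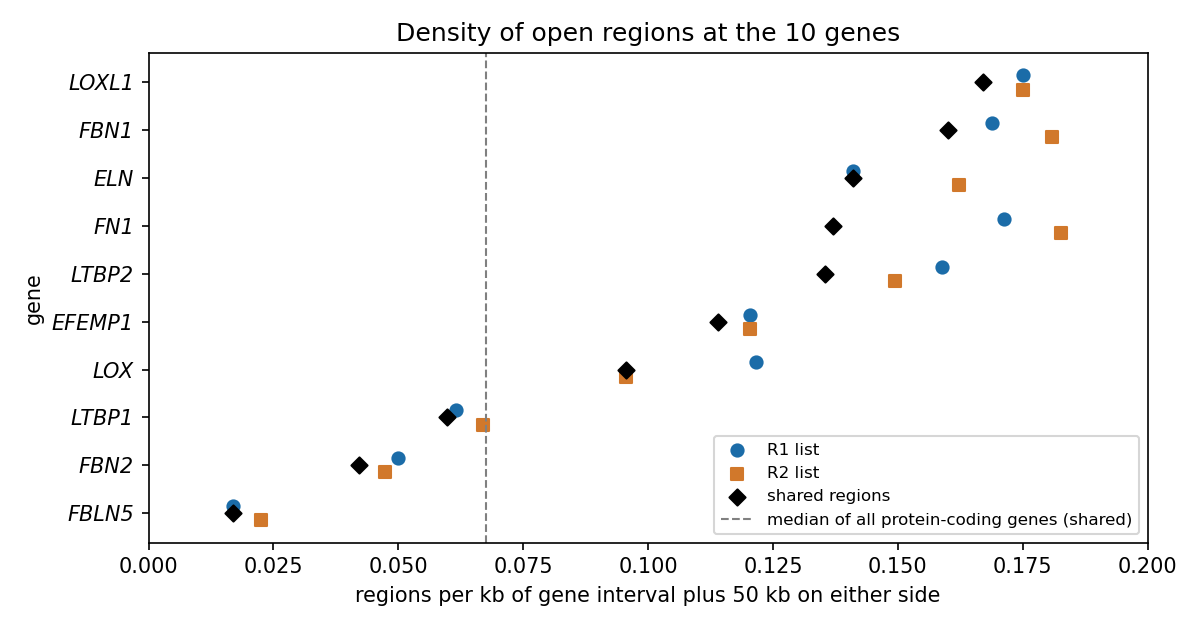
Regions per kb (horizontal axis) of the gene interval plus 50 kb on either side for each of the 10 genes (vertical axis), in the R1 list (circles), the R2 list (squares) and for shared regions (diamonds), and a dashed line at the genome-wide median of shared regions. LOXL1 (0.167 shared regions per kb) and FBN1 (0.160) lie highest, and the shared densities of LTBP1, FBN2 and FBLN5 lie left of the line at 0.0676.

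The median over the 10 genes was 0.125 shared regions per kb, and 7 of the 10 lay above the median of all protein-coding genes. Collagen chain genes, 44 genes of another part of the matrix, had a median of 0.0790 per kb by the same rule. No test of this difference was run, because the 10 genes were chosen on the measure. At the edge of the search window, 19 shared regions had their centre 40 to 50 kb from a gene's interval, and 13 lay just outside, at 50 to 60 kb. Their median within-list percentiles of fold were 59.7 and 68.6.

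Promoters were examined next. A promoter region was a shared region that overlapped the 1000 bp on either side of the gene start. For ELN and EFEMP1 the promoter table held no start, and either end of the interval was used. All 10 genes had such a region, against 71.5% of the protein-coding genes, and 8 of 8 did among the genes with a start, against 72.4%. Since the choice of genes used the same peaks, nothing is read from this difference.

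The promoter regions of the 10 genes were far apart in strength. The fold is the authors' value for the summit of a peak over its local background, and the percentile ranks it within its own list, with 100 the strongest. LTBP1 had the highest, 12.0-fold in R1 (percentile 96.2) and 11.04-fold in R2 (94.3). FBLN5 followed with 9.98 and 9.85, at percentiles 88.5 and 88.8, and EFEMP1 with 7.54 and 8.95. FBN2, LOX, FBN1, FN1 and ELN lay near the middle of the lists, with folds from 5.08 to 6.32. The lowest were LTBP2, with 2.87 in R1 and 3.95 in R2, and LOXL1, with 2.62 and 2.55 at percentiles 14.5 and 11.4. For LTBP1 alone was the promoter the strongest of the gene's own regions. The promoter of FBN1 ranked 19th of 54 and that of LOXL1 16th of 21.

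Ranking by pileup, a number not divided by the background, gave another order. The promoter of FBN1 held 434 summit fragments in R1 (percentile 98.4) and 418 in R2 (98.0), and that of FN1 had 431 and 378, at 98.3 and 96.5. LOXL1 had 331 and 313 fragments, at percentiles 94.5 and 93.2, over a local background of 126 and 122 fragments. LTBP1 had 301 and 294 fragments over a background of only 24.2 and 25.7. Among all peaks, LOXL1 thus lay low in fold and high in fragments, whereas LTBP1 was high in both. Among promoters their fragments were ordinary. Over the 14276 protein-coding genes with a promoter region in both lists, the median promoter lay at mean percentile 92.8 by pileup and 71.2 by fold. Its background was 37.1 fragments. By mean pileup percentile LOXL1 stood at 93.9 and LTBP1 at 92.4. Above the median promoter lay 4 of the 10 by pileup and 3 by fold. The median background over all peaks was 11.6 fragments in R1 and 11.5 in R2.

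**Figure D2:**
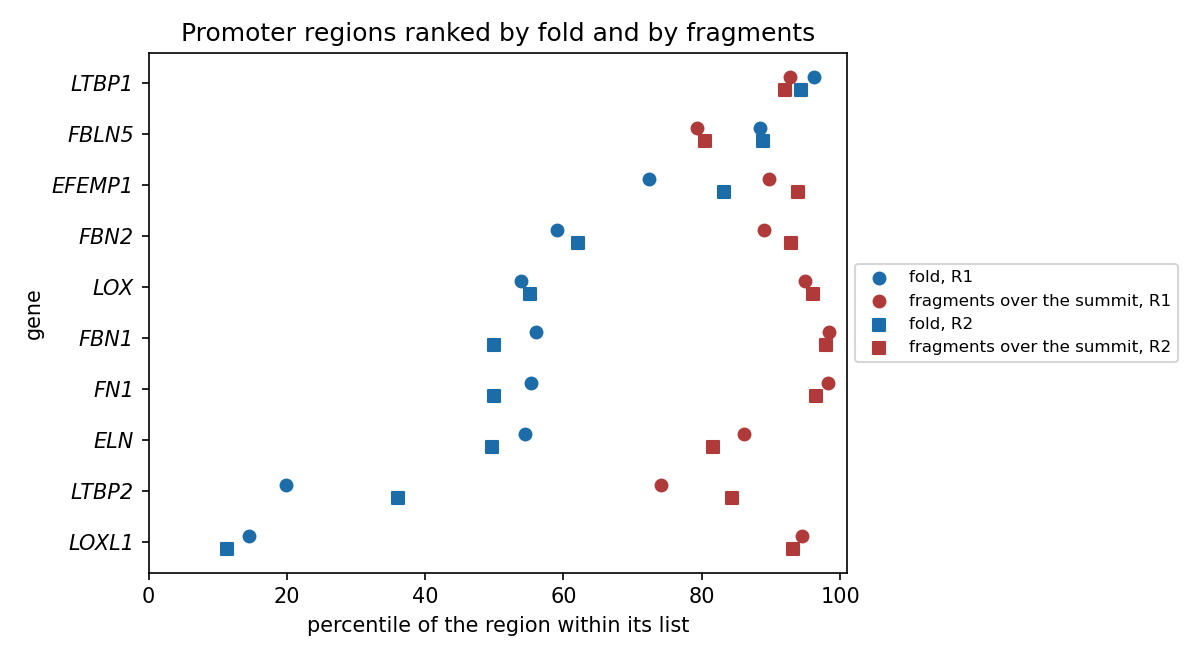
Percentile of the promoter region within its list (horizontal axis) for each gene (vertical axis), ranked by fold over background (blue) and by fragments over the summit (red) in R1 (circles) and R2 (squares). LOXL1 lies at 14.5 and 11.4 by fold and at 94.5 and 93.2 by fragments, while LTBP1 lies above 90 by both.

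Over the 10 genes, those with the densest regions had the lower promoter folds, with a Spearman rho of -0.81 between the mean promoter percentile and the shared regions per kb (n = 10 genes). Over the 14276 protein-coding genes with a promoter region in both lists rho was -0.32. With pileup in place of fold the values were 0.43 for the 10 genes and 0.039 for all. With the local background they were 0.76 and 0.27. The 10 genes were chosen with their region counts known, and the promoter region is itself counted in the density. These points also share their libraries, and the background is itself part of the fold, so the coefficients are descriptions across genes. No difference between the 10 genes and all genes is read from them. What part the background has in the relation was not tested.

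Promoter sequences show a part of what the open stretches hold, the 250 bases before the start. RefSeq promoter sequences (GRCh38.p14) were found for 8 of the 10 genes, all but ELN and EFEMP1, and the region covered 100% of the 250 bases before the start in each. Those of 6 genes are printed, 5′ to 3′ on the gene's strand: LTBP1 and FBLN5 as the highest in fold, LTBP2 and LOXL1 as the lowest, and FBN1 and FN1 as the highest in fragments. Capitals mark matches, on either strand, to any of 7 motifs. The TATA box was searched as TATAAA, the GC box as GGGCGG and the CCAAT box by those letters. The motif of AP-1 factors was searched as TGANTCA, that of TEAD factors as GGAATG, the E-box as CACGTG and the SMAD motif as CAGAC. Matches of 1 motif that overlap run together. The windows are chr2:32946703-32946952 for LTBP1 (plus strand), chr14:91947695-91947944 for FBLN5 (minus), chr14:74612238-74612487 for LTBP2 (minus), chr15:73926212-73926461 for LOXL1 (plus), chr15:48644971-48645220 for FBN1 (minus) and chr2:215436069-215436318 for FN1 (minus).
LTBP1: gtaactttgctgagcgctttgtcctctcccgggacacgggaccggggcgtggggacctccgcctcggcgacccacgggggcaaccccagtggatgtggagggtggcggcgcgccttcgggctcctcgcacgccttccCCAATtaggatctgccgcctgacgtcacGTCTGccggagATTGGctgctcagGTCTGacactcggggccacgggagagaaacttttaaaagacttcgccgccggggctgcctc
FBLN5: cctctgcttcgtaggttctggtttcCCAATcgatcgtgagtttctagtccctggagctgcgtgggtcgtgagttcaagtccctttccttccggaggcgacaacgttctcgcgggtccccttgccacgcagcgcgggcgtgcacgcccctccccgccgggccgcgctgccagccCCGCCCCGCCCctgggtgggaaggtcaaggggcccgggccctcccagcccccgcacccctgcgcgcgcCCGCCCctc
LTBP2: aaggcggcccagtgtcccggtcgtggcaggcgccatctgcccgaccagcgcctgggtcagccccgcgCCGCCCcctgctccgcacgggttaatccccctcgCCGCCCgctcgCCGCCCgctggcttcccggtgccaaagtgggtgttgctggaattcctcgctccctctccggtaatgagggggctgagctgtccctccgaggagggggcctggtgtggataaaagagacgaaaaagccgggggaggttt
LOXL1: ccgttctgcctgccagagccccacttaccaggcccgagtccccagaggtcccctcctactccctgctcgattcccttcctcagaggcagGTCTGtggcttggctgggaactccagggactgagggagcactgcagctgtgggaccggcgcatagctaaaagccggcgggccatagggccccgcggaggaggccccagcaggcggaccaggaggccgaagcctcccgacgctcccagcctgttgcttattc
FBN1: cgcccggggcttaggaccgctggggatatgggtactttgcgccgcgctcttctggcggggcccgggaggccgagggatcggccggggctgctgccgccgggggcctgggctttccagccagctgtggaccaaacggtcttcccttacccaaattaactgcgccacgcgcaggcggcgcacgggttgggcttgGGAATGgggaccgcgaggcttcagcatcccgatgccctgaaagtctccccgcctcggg
FN1: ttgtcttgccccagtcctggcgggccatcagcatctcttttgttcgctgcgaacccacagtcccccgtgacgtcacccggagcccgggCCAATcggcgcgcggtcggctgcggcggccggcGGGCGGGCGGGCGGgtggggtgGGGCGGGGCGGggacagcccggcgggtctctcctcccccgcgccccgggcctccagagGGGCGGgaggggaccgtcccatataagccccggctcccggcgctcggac

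The FN1 stretch had 76.4% G and C and 32 CG dinucleotides, and its capitals are 6 GC boxes, some of which overlap, and 1 CCAAT box. LTBP2 and FBLN5 each held 3 GC boxes. LTBP1, the highest in fold, had no GC box, 2 CCAAT boxes and 2 CAGAC matches. LOXL1, the lowest, had 1 CAGAC match and none of the other motifs, with 13 CG dinucleotides in 66.8% G and C. The medians were 17 and 62.4% over 15812 promoters, and 21 and 65.2% over those with a region in both lists. FBN1 had 1 GGAATG match, 53 to 58 bases before the start, and no other. GC boxes were thus seen at promoters of low as well as high fold, but most summits that gave these folds lay outside the 250 bases. Both summits lay within them for LOXL1 (196 bases before the start). For FN1 the R1 summit did (235) and the R2 summit did not (304). Those of FBN1 (856 and 854), LTBP2 (312 and 254) and LTBP1 (283 and 276) lay farther upstream, and that of FBLN5 245 bases inside the gene.

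Over all 8 genes, 5 held a GC box (56.0% of all promoters did) and 5 a CCAAT box (34.4%). CAGAC was present in 3 (36.7% of all), GGAATG in 1 (10.1%) and CACGTG in 1, that of FBN2 (7.83%). TATAAA and TGANTCA were in none of the 8, against 9.25% and 5.05% of all promoters. All 8 had a region in both lists, as did 11451 of all promoters. Among those 11451 the share was 67.4% for the GC box and 34.6% for the CCAAT box. It was 35.6% for CAGAC, 9.25% for GGAATG, 8.79% for CACGTG, 5.69% for TATAAA and 4.05% for TGANTCA. A match is a run of letters and does not show binding, and an absent match says only that these letters were not in the 250 bases.

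Fibrillins form the core of the microfibril. FBN1 (chromosome 15, 48408313 to 48645709, minus strand) encodes fibrillin-1, the gene mutated in Marfan syndrome. Its 54 shared regions comprised 35 within the gene, 7 upstream and 12 downstream, and they covered 46.3 kb, or 13.7% of the stretch searched, where the median protein-coding gene had 6.72%. Regions followed each other along the whole gene, with a median spacing of 5.14 kb between summits and 29.2 kb as the longest stretch without one. When the interval was cut into 5 stretches of 47.5 kb, they held 9, 8, 4, 6 and 8 regions from the start onward. None of the 19 regions beyond the ends of FBN1 lay at the start or in the body of another protein-coding gene.

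Most FBN1 regions were of low or middling fold. Of the 54, 23 had a mean within-list percentile of at least 50, against 56.3% of all shared regions, and 1 reached 90. That region lay inside the gene, 103 kb from the start (chr15:48541586-48542879), with folds of 10.7 and 12.1. The next by mean percentile, with folds of 9.73 and 8.21, lay 151 kb from the start. The promoter region (chr15:48644844-48646716) was 1873 bp wide, and its summit stood 856 bp upstream of the start in R1 and 854 bp in R2. The RefSeq interval of FBN1 reaches 739 bp upstream of the start used here, and the R1 summit lies 21 bp from the end of FBN1-DT nearest to FBN1, a long noncoding RNA gene. A weak second region of folds 1.67 and 1.59 lay 649 bp inside the gene.

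Only 1 of the 1299 protein-coding genes within 1.5 times the length of FBN1 had more shared regions per kb. This was CRIM1, with 49 regions and 0.166 per kb. Next below FBN1 came WWTR1 with 47 regions and 0.153, DLG1 with 54 and 0.151, and ZMIZ1 with 52 and 0.150. In each single list DLG1 had more peaks per kb than FBN1, although a smaller part of them formed shared regions. It had 76 peaks in R1 and 68 in R2, against 57 and 61 for FBN1. The place of FBN1 in this order therefore holds for shared regions only. The measure of likeness is the difference in shared regions per kb, in 2 pooled lists.

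FBN2 encodes fibrillin-2, which is made mainly in the embryo. The gene is longer than FBN1 (chromosome 5, 128257909 to 128538245, minus strand, 280 kb) but had 19 peaks in R1, 18 in R2 and 16 shared regions, 10 of them within the gene. The longest distance between neighbouring summits in the gene was 74.1 kb. Of these 10, 5 lay in the 56.1 kb farthest from the start. The strongest (chr5:128276512-128277276) was among them, 261 kb from the start, with folds of 11.1 and 10.5. The promoter region of FBN2 was wide, 2334 bp, with folds of 5.95 and 6.32, and the strongest summits of the lists stood 1062 bp apart in it. Fewer regions did not mean weaker ones, since 10 of the 16 had a mean percentile of at least 50.

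**Figure D3:**
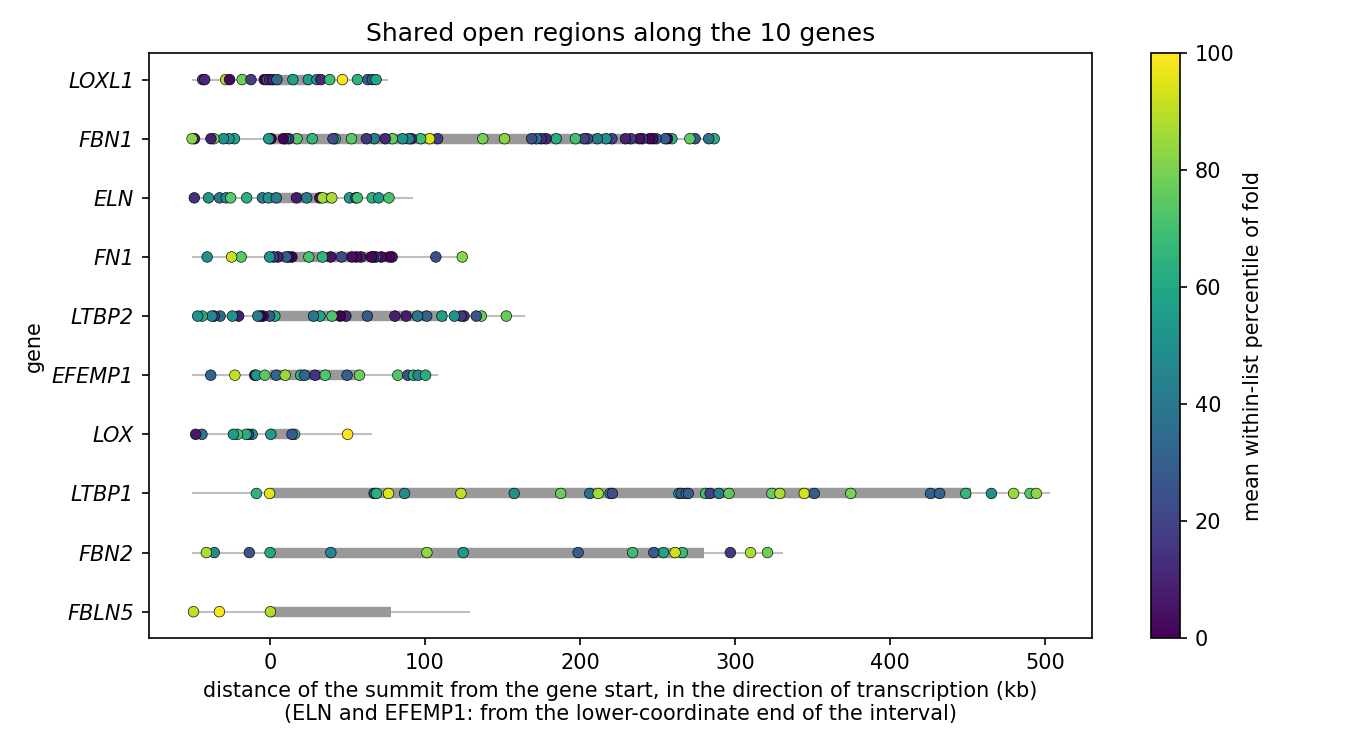
Summits of shared regions (points) along each gene (vertical axis), as distance from the gene start in the direction of transcription (kb, horizontal axis), with the gene interval as a thick bar, the 50 kb on either side as a thin line and the mean within-list percentile of fold as colour. Distances of ELN and EFEMP1 are from the lower-coordinate end. FBN1 carries 54 regions along its whole length, FBN2 16, and FBLN5 1 at its start and 2 upstream.

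LTBP1 encodes a protein that holds latent TGF-β in the matrix. The gene (chromosome 2, 32946953 to 33399509, plus strand) spans 453 kb and had 34 peaks in R1, 37 in R2 and 33 shared regions, 28 of them within the gene. At 0.0597 per kb it was sparse, but 18 of its 33 regions had a mean percentile of at least 50 and 4 reached 90. These 4 were the promoter (chr2:32946182-32947997) and regions 76.5, 123 and 345 kb from the start. Their folds were 10.3 to 12.0 (R1) and 10.3 to 11.4 (R2). From the promoter summit to the next summit in the gene was 67.4 kb. The R1 peak at the promoter was 771 bp wide and the R2 peak 1816 bp, although their summits lay 7 bp apart.

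LTBP2 (chromosome 14, 74498183 to 74612237, minus strand) had 34 peaks in R1, 32 in R2 and 29 shared regions in a stretch of 214 kb. Its protein associates with microfibrils but, unlike that of LTBP1, does not bind latent TGF-β. Within the gene lay 13 regions and in the flanks 16, of which 1 was at the starts of NPC2 and ISCA2, 5 were inside other protein-coding genes and 10 outside them. None of the 29 reached a mean percentile of 90. The strongest (chr14:74475543-74476921) lay within SYNDIG1L with folds of 9.10 and 7.37. At the promoter (chr14:74611938-74612711) 149 fragments in R1 and 206 in R2 stood over a background of 51.3 and 51.4. The LTBP2 promoter was thus weak in R1 in particular, and 16 other regions of the gene ranked above it.

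ELN encodes tropoelastin, the monomer of elastin (chromosome 7, 74028173 to 74069907). It had 20 peaks in R1, 23 in R2 and 20 shared regions, 6 within its 41.7 kb and 14 in the flanks. The region near the lower-coordinate end (chr7:74026573-74027499) had folds of 5.48 and 5.08. It lay outside the interval and was lost when the promoter window was narrowed to 500 bp. The 2 strongest regions lay at the other end of the gene: chr7:74067615-74068559 with folds of 9.35 and 10.1, and chr7:74061625-74062533, which overlaps the noncoding gene ELN-AS1, with 9.47 and 9.41. In the flank at that end, 2 regions lay at the start of LIMK1 and 3 inside it.

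Fibulins link elastin to microfibrils and cells. FBLN5 encodes fibulin-5, which is required for elastic fibre assembly (chromosome 14, 91869411 to 91947694, minus strand). It stood apart in having 3 shared regions in 178 kb. The promoter region (chr14:91946222-91948245, folds 9.98 and 9.85) was the only one within the gene. The 78.0 kb from its summit to the far end of the gene held no other. The other 2 lay upstream inside TRIP11, with folds of 13.8 and 12.4 (chr14:91980008-91980730) and of 9.99 and 10.5 (chr14:91996766-91997757). All 3 were strong, with mean percentiles from 88.6 to 98.4. One more peak, in R2 alone, had a fold of 1.82.

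EFEMP1 encodes fibulin-3, whose mutation causes a drusen-forming macular dystrophy (chromosome 2, 55865967 to 55923782). It had 19 peaks in each list and 18 shared regions, 8 within the gene and 10 in the flanks. None of the 10 lay at the start or in the body of another protein-coding gene. All 10 overlapped a noncoding gene, LOC112268416 on the lower-coordinate side and LOC105374690 on the other. The region at the higher-coordinate end of EFEMP1 (chr2:55922384-55924217) had folds of 7.54 and 8.95, and 258 and 324 fragments over the summit. The strongest was chr2:55842866-55843832, 22.7 kb beyond the other end, with folds of 11.3 and 9.77. EFEMP1 thus lay between the sparse FBLN5 and the dense LOXL1 in number of regions.

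Lysyl oxidases oxidise lysines of elastin and collagen so that they cross-link. LOX (chromosome 5, 122063195 to 122078259, minus strand) is the shortest of the genes at 15.1 kb and lies within the RefSeq interval of SRFBP1. It had 14 peaks in R1, 11 in R2 and 11 shared regions, 2 of them in the gene and 7 upstream. The promoter region (chr5:122076108-122079001) was the widest of all 229 at 2894 bp, with folds of 5.40 and 5.58 and 339 and 367 fragments. Its strongest peak was 1071 bp wide in R1 and 2833 bp in R2, and the summits stood 1495 bp apart. The R2 summit lay 1246 bp inside the gene, beyond the 1000 bp window, so the 2 folds come from different sites. The strongest of the 229 was also found at LOX, 50.1 kb from its start inside SRFBP1 (chr5:122028010-122028598). Its folds were 15.3 (R1, percentile 99.8) and 16.6 (R2, percentile 99.96), with 144 and 159 fragments over a background of 8.49 and 8.61.

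LOXL1 encodes a lysyl oxidase directed to elastin, and its variants are the main known risk factor of exfoliation glaucoma (chromosome 15, 73926462 to 73952136, plus strand). It had 22 peaks in each list and 21 shared regions in 126 kb, which covered 17.7% of that stretch, at percentile 98.7 of all protein-coding genes. Only 5 lay within the gene. Of the 16 in the flanks, 1 lay at the start of STOML1, 1 at that of PML, 7 inside other protein-coding genes and 7 outside these, 2 of which overlap LOXL1-AS1. The promoter region (chr15:73926010-73926831) also overlaps LOXL1-AS1, a noncoding gene. The strongest region (chr15:73972807-73973710) lay 46.7 kb from the start and outside protein-coding genes, with folds of 13.2 and 12.8 and 318 and 295 fragments. Of the 21 regions, 8 had a mean percentile of at least 50.

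FN1 encodes fibronectin, the matrix protein on which fibrillin assembly depends (chromosome 2, 215360865 to 215436068, minus strand). It had 30 peaks in R1, 32 in R2 and 24 shared regions, 17 within the gene and 7 in the flanks. Of these 7, 1 lay at the start of ATIC, with folds of 8.77 and 8.96, 3 inside ATIC and 3 outside other protein-coding genes. Some regions within FN1, at the end away from its start, also overlap ATIC. Inside FN1 the density was 0.226 per kb, the highest of the 10. Over the gene and its flanks together, the peaks of FN1 had the lowest median fold of the 10. It was 2.48 in R1 (percentile 11.4) and 2.22 in R2 (percentile 4.39), over a median background of 22.04 and 22.8 fragments. The promoter (chr2:215435418-215437395), with folds of 5.56 and 5.11, and 2 regions 25.0 and 33.8 kb into the gene, with folds of 7.58 and 7.21 and of 6.98 and 6.63, stood above the other regions in the gene. The strongest lay upstream at 24.8 kb (chr2:215460418-215461602), with folds of 10.5 and 10.4. With peaks of a −log10 q-value of at least 5 only, the density of FN1 was 0.0742 per kb, and its place in the order moved from 4 to 7.

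**Figure D4:**
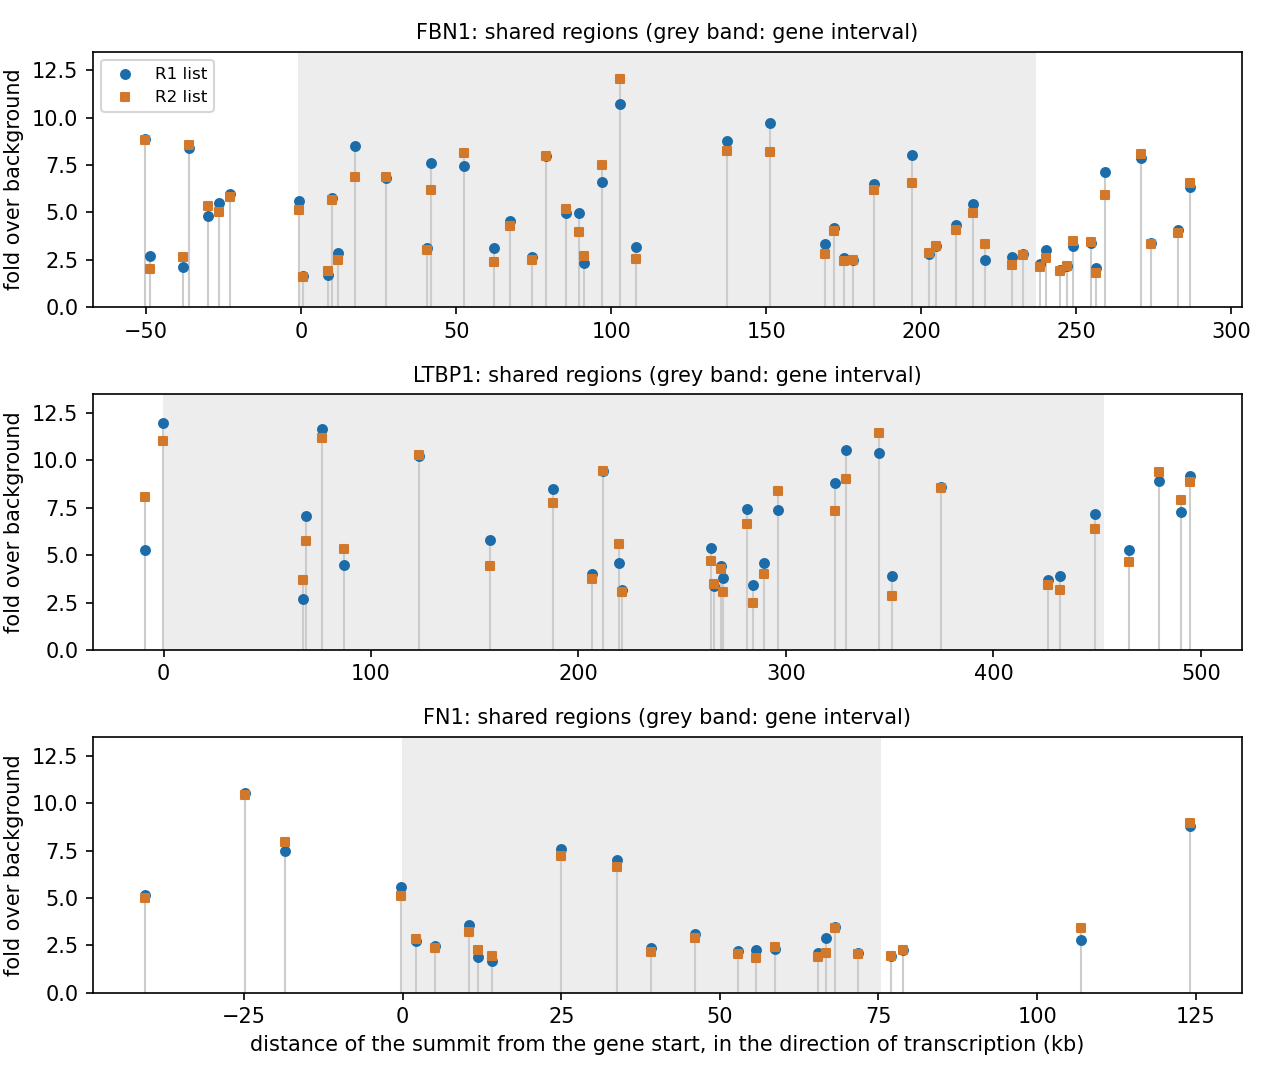
Fold over background (vertical axis) of each shared region against its distance from the gene start (kb, horizontal axis) for FBN1, LTBP1 and FN1, in R1 (circles) and R2 (squares), with the gene interval shaded. The strongest FBN1 region stands 103 kb from the start, the 4 LTBP1 regions with a mean percentile of at least 90 stand at the start and at 76.5, 123 and 345 kb, and within FN1 the promoter and 2 further regions stand above the others.

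Most regions of the 10 genes were found in both lists. Of the R1 peaks 232 of 252 (92.1%, exact binomial 95% interval 88.0 to 95.1) overlapped an R2 peak, against 87.3% over the whole list. Of the R2 peaks 234 of 259 (90.3%, 86.1 to 93.7) overlapped an R1 peak, against 91.8%. The intervals cover counting error only. Peaks without a partner numbered 20 in R1 and 25 in R2, and every one had a fold under its list's median. FN1 held 6 of each, and 80.0% of its R1 peaks and 81.2% of its R2 peaks were found in the other list. ELN and FBLN5 in R1 and EFEMP1 and LOX in R2 had no peak without a partner. Where both lists held a region, their strongest summits lay a median of 38 bp apart, against 37 bp over all shared regions.

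The regions of the 10 genes were weaker in fold than the lists as a whole. Of the 229, 12 (5.24%) had a mean percentile of at least 90, against 11.0% of all shared regions, and the median was 46.04 against 55.6. Their local background was higher, with a median over their peaks of 18.8 fragments in R1 and 18.3 in R2, against 11.6 and 11.5 over the lists. By pileup the median peak of the 10 genes stood at percentile 54.9 in R1 and 50.7 in R2. The part of the background in the lower folds was not tested.

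The wider list of elastic fibre and microfibril genes held 34 other genes, among them further fibulins, emilins, microfibril-associated proteins, ADAMTS-like proteins, integrins that bind fibronectin or fibrillin, and the TGF-β ligands. Of these, 28 had a promoter region in both lists, against 71.5% of all protein-coding genes, and the median density was 0.101 shared regions per kb. The strongest promoters were those of ITGB5, an integrin subunit gene, with folds of 10.7 and 9.37, FBLN7 with 7.50 and 8.88, LOXL2, another lysyl oxidase gene, with 7.66 and 7.63, and LOXL4 with 7.97 and 7.02. MFAP5, EMILIN2, FBLN1, FBLN2 and LTBP4 had a promoter region in neither list, and ADAMTS17 had one in R1 alone. Of the 5 genes without one, LTBP4 (0.139 shared regions per kb), FBLN1 (0.101) and FBLN2 (0.0898) still lay above the all-gene median density of 0.0676, and MFAP5 (0.0513) and EMILIN2 (0.0471) below it. The third fibrillin gene, FBN3, had 11 shared regions and a promoter region of folds 4.41 and 3.60. LTBP3 had 0.175 shared regions per kb, more than any of the 10 genes.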

How the data were processed

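ATAC-seq peaks came as 1 list per set, without a header. The lists are named as merged, and the titles place 3 libraries in each set. Coordinates are on hg38, per the submitters' processing notes. Aligner, peak caller and any Tn5 shift: not given in the sources used here. For each peak, the authors deposited a fold over background (a ratio), a −log10 p-value, a −log10 q-value, a score, which was not used, and the summit. Lists were limited to chromosomes 1 to 22 and X. Peaks of both lists that overlapped by at least 1 bp were joined. Intervals came from the RefSeq table of GRCh38.p14 and starts from its promoter table, which held 15812 of the 19974 protein-coding genes. The other 4162 were counted at either interval end.

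Pileups were recovered by reading each fold as (pileup + 1)/(background + 1), with a Poisson tail for the p-value. This relation is inferred from the values. A whole pileup gave the deposited −log10 p-value within 0.001 for every peak, and a higher background lowers the fold. No depth of single libraries was used.

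The genes, the wider list and the motifs were chosen with earlier results of these data known. All 10 genes are named, with their promoter region and the region of best mean percentile. From the wider list the rule names the 4 best promoters and all genes without one in either list. FBN3, LTBP3 and other regions were named after their values were seen. Tested on simulated data, overlaps were right for all 842 intervals and pileups for all 4844 peaks (0 errors). The simulated peaks were made with the same relation. Their backgrounds stopped below those of the FBN1, FN1 and LOXL1 promoters, which this check does not cover. Software was scipy 1.17.1, pandas 2.3.3, matplotlib 3.10.9, numpy 2.4.6 and Python 3.11.15.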

Additional observations from a re-analysis of the deposited data

How the results depend on the processing

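No paired analysis was possible because each set was deposited as 1 merged list, and for the same reason no single library could be left out. The 229 shared regions became 91 with peaks at or above the median fold of their list, 125 in the gene intervals alone and 147 with 10 kb on either side, all by construction. The median of 0.125 shared regions per kb moved by more than the spread between the lists under every alternative and stayed above that of all protein-coding genes. Peaks of −log10 q 5 or more gave 0.0985 and of 10 or more 0.0803. It was 0.0427 for peaks at or above the median fold (0.0350 over all genes), 0.108 with 50% overlap of both regions, 0.131 in R1 alone and 0.135 in R2 alone. It was 0.136, 0.138 and 0.106 with 0, 10 and 100 kb on either side. With peaks at or above the median fold, 5 of the 10 genes (55.1% of all) and 14 of the 34 kept a promoter region in both lists, and FBN1, ELN, FN1, LOXL1 and LTBP2 lost theirs. The R1 peaks found in R2 then made up 85.2%, against 90.4% over the whole list. With −log10 q of at least 5 they made up 90.5%, against 91.7%. With 50% overlap LTBP1 lost its promoter region. The shares were then 82.5% for R1 (80.9% over the whole list) and 80.3% for R2 (86.0% over the whole list). At −log10 q of at least 10 the R2 share was 97.0%, against 96.1% over the whole list. Whether the 10 genes lay above or below the whole list thus depended on the setting. LOXL1 was densest under 6 of 10 settings, FN1 under 3 (R2 alone, the interval alone and 10 kb) and FBN1 with 100 kb.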
